A study of Mus musculus with 12 samples.

Results

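Mammary tumours of S1pr1_KO mice were compared with those of C3_KO mice, 4 RNA-seq libraries against 4, chosen by genotype label from a series of 12. Both knockout strains carried MMTV-PyMT, an oncogene transgene encoding polyoma middle T antigen that gives rise to mammary tumours, and both carried MMTV-Cre. S1pr1_KO mice had in addition floxed alleles of S1pr1 (S1pr1fl/fl), and C3_KO mice had the modified C3 allele written C3Tdt. The other 4 libraries, called WT, came from mice with MMTV-PyMT and, per the design text, MMTV-Cre. The strain label of WT names MMTV-PyMT alone. All primary tumours were taken at 4.5 months. Cre under MMTV control acts chiefly in epithelial cells of the gland, so vessels, stroma and leukocytes within a tumour may still carry an intact gene. Whether the 4 libraries of a genotype came from separate mice is not given, so p-values measure the spread between these samples, which may in part be technical. Replicate numbers only name a library.

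C3 is the central protein of complement, the blood and tissue system that tags surfaces for uptake and recruits leukocytes through the fragment C3a. S1pr1 is a G protein-coupled receptor for sphingosine-1-phosphate, a lipid that guides lymphocytes out of lymph nodes and stabilises the junctions of blood vessels. In the mammary gland both tumour cells and cells of the stroma can express complement proteins, whereas S1pr1 is best known from endothelium and lymphocytes.

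Promoters of 3 genes whose levels are described below are shown here, to set the regulatory sequence beside the values. C3 is the targeted gene with the wider difference between the knockouts, and the caseins Csn1s1 and Csn2 are milk protein genes that were very high in a single C3_KO library. Sequences are from RefSeq on build GRCm38.p6, which is not the build of the deposited counts, and run 5′ to 3′ over the 250 bases before the start site. C3 lies at chr17:57228137-57228386 on the minus strand, Csn1s1 at chr5:87665958-87666207 on the plus strand and Csn2 at chr5:87699426-87699675 on the minus strand. Capitals mark TTGCNNAA in C3, a pattern of the kind bound by C/EBP factors, whose opposite strand reads TTNNGCAA, and TTCNNNGAA in the caseins, a pattern of the kind bound by STAT factors, which reads the same on both strands.
C3: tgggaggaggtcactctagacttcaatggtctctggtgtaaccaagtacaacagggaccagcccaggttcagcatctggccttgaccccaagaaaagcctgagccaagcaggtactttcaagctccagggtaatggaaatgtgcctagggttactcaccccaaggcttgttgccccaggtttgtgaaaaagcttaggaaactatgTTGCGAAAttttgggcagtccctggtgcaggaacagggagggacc
Csn1s1: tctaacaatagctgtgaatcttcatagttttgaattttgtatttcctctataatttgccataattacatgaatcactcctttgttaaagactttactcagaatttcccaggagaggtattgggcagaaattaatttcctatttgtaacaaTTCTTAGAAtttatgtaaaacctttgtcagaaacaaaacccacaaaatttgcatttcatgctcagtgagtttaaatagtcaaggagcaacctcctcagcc
Csn2: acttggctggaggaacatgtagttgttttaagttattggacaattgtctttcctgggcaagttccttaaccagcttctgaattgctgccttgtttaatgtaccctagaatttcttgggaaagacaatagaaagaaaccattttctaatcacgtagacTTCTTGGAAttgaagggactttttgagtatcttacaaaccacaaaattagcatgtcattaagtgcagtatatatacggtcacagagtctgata
The capitals begin 45 bases before the start site in C3, 100 before it in Csn1s1 and 93 before it in Csn2. Of 32851 RefSeq promoters of this length, 9.56% hold TTGCNNAA on either strand and 7.02% hold TTCNNNGAA. Of the 18 milk protein genes listed, 13 had a promoter in the table and 3 of those held TTCNNNGAA. Counted by gene in the same way, 2197 of all 27025 genes searched (8.13%) held it. Csn1s2a, another casein that was high in the same library, at 18200 CPM, has a promoter in the table with 0 matches to TTCNNNGAA and is not printed. These matches describe letters and do not show binding.

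The totals of the C3_KO libraries ran from 237.1 to 424.6 M counts (M, 1000000) and those of the S1pr1_KO libraries from 230.4 to 380.3 M. Markers of mammary tumour epithelium were present in all 12 libraries, with Epcam between 376 and 801 CPM (counts scaled to library size with TMM factors) and Krt8 between 526 and 2120 CPM, and the luminal factor Foxa1 between 3.54 and 53.0 CPM. Across genes, which are not independent, library profiles correlated with a median of 0.948 within C3_KO, 0.946 within S1pr1_KO and 0.951 between them, so pairs from different knockouts were as alike as pairs from the same one. Libraries rich in salivary or milk transcripts stood apart and are named here, because many values rest on them. Salivary gland genes held 17.0% of the counts of S1pr1_KO 1 and 1.39% of those of S1pr1_KO 4, and at most 0.133% of any other library. Milk protein genes held 9.29% of the counts of C3_KO 3 and at most 0.835% of any other library.

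The targeted genes were read first. C3 stood at 47.8, 74.5, 41.6 and 75.1 CPM in the C3_KO libraries and at 273, 182, 43.4 and 152 CPM in the S1pr1_KO libraries. S1pr1_KO 1, 2 and 4 lay above every C3_KO library, and S1pr1_KO 3 lay among them, so the groups overlapped. The difference was 1.44 on the log2 scale (SE 0.50), with an unadjusted p of 0.0128 and an adjusted p of 1 from edgeR's quasi-likelihood test. Without S1pr1_KO 3 the difference was 1.77, with an adjusted p of 0.335, and without C3_KO 3 and S1pr1_KO 1 and 4 it was 0.80. WT libraries held 182, 89.2, 90.3 and 43.3 CPM of C3 and overlapped both knockouts. C3_KO was 0.76 lower than WT on the log2 scale (adjusted p 0.765), and S1pr1_KO was 0.68 higher (adjusted p 0.514).

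S1pr1 stood at 5.94, 6.76, 9.94 and 6.95 CPM in the C3_KO libraries and at 5.76, 7.43, 2.59 and 2.80 CPM in the S1pr1_KO libraries. S1pr1_KO 3 and 4 were clearly below every C3_KO library, S1pr1_KO 1 was just below them, and S1pr1_KO 2 lay within their range, so the groups overlapped. The difference was -0.67 on the log2 scale (SE 0.43, unadjusted p 0.141, adjusted p 1), and it ran from -0.99 to -0.36 over the alternatives. WT libraries held 6.87, 8.02, 2.88 and 3.05 CPM, so the low level of S1pr1_KO 3 and 4 was also seen without the floxed alleles. Against WT the log2 difference of S1pr1 was -0.17 in S1pr1_KO (edgeR adjusted p 0.874) and 0.51 in C3_KO (edgeR adjusted p 0.788). The gap between the knockouts thus lay more in the higher level of C3_KO than in a fall below WT in S1pr1_KO. Neither knockout label was therefore matched by a called fall of its gene. Counts are per whole gene, and the labels do not say which exons are removed, so a transcript that lacks them would still be counted. In bulk tumour, fewer cells of a type and less RNA per cell cannot be told apart.

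**Figure D1:**
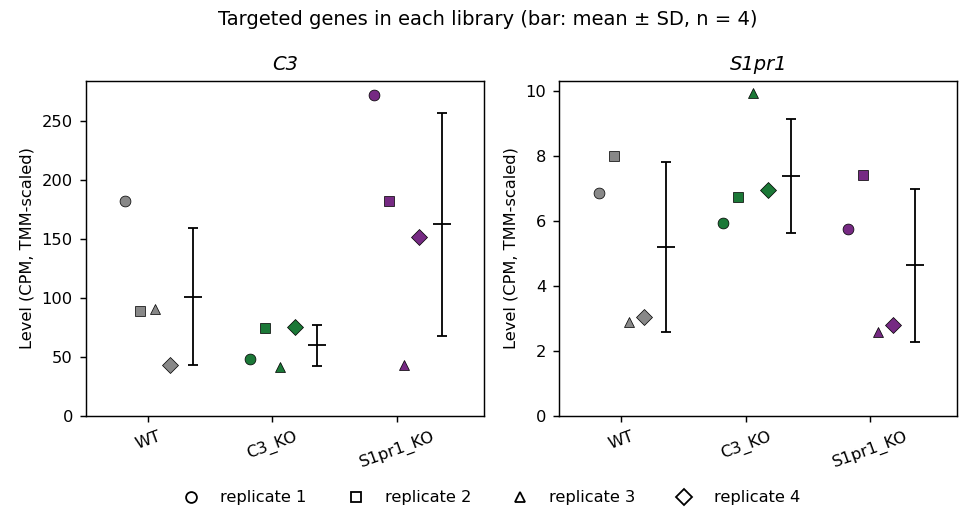
Level of C3 (left) and S1pr1 (right) in CPM with TMM factors on linear axes, a point for each library with its shape giving the replicate, and mean ± SD of 4 libraries beside each genotype. C3 is highest in S1pr1_KO 1 at 273 CPM, and S1pr1_KO 3 at 43.4 CPM lies among the C3_KO libraries. S1pr1 is lowest in S1pr1_KO 3 and 4.

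No gene was called between the knockouts. Of 30660 genes tested, 0 (0%) had an edgeR adjusted p under 0.05, and the smallest adjusted p was 0.358. An unadjusted p under 0.05 was found for 1042 genes (3.40%), 543 higher in S1pr1_KO (1.77%) and 499 lower (1.63%). The 4 libraries of one knockout did not overlap those of the other for 403 genes (1.31%), 146 higher in S1pr1_KO (0.476%) and 257 lower (0.838%). Against WT 0 genes (0%) were called in either knockout by the same test. For S1pr1_KO an unadjusted p under 0.05 was found for 15.5% of genes (7.69% higher, 7.78% lower) and no overlap with WT for 7.58% (2.78% higher, 4.80% lower). For C3_KO these shares were 6.23% (3.62% higher, 2.61% lower) and 3.04% (1.32% higher, 1.72% lower). The common biological coefficient of variation was 0.564. DESeq2 called 114 of the 30660 genes, 57 in each direction. Of the 114, 67 are predicted genes, pseudogenes or antigen receptor segments, a class that holds 42% of all genes tested.

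**Figure D2:**
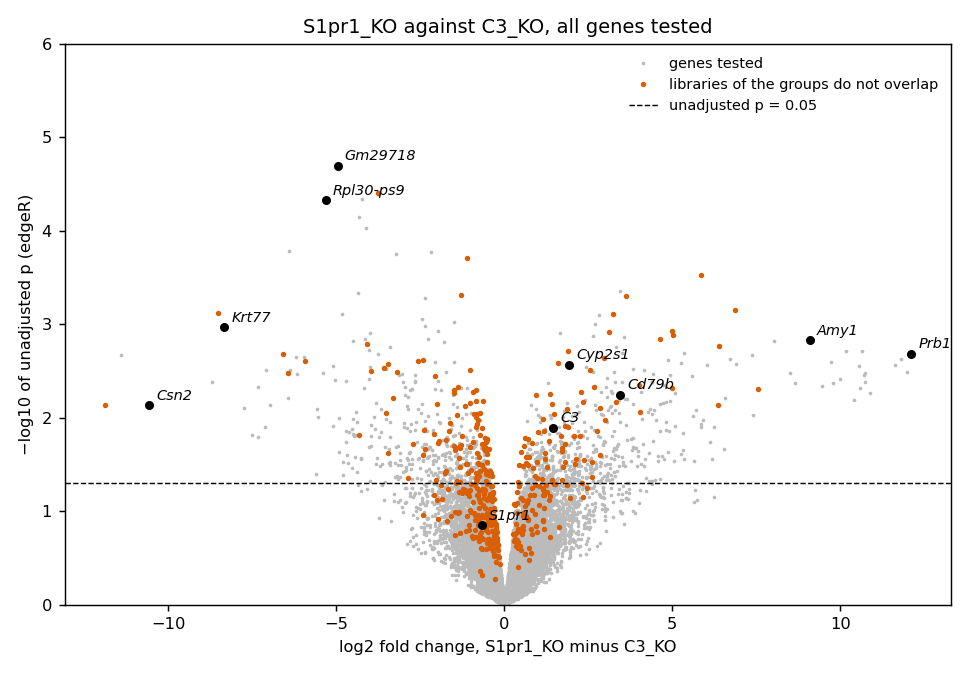
Each point is a gene of the 30660 tested, with the log2 fold change (S1pr1_KO minus C3_KO) across and −log10 of the unadjusted edgeR p upwards. Orange points are the 403 genes whose libraries do not overlap between the knockouts, black points carry names used in the text, and the dashed line marks the unadjusted edgeR threshold. Prb1 and Amy1 at the right and Csn2 at the left have wide differences at modest p, and the smallest p belongs to Gm29718.

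In each direction 10 genes are described as values that did not pass: those of smallest p among genes with no overlap between the knockouts and an average log2 CPM of at least 1, leaving out predicted genes, pseudogenes and receptor segments. Those higher in S1pr1_KO come first. Bhlha15 (Mist1), a transcription factor of professional secretory cells, stood at 56.3, 59.5, 59.3 and 63.1 CPM in C3_KO and at 136, 92.3, 123 and 182 CPM in S1pr1_KO. Every S1pr1_KO library was above the narrow C3_KO range, by 1.16 on the log2 scale (SE 0.39, p 0.0104, adjusted p 1). WT libraries at 129, 33.3, 155 and 175 CPM reached from below the one knockout into the other. Atp2a3, the calcium pump SERCA3 of the endoplasmic reticulum, stood at 69.5, 32.8, 11.2 and 97.5 CPM in C3_KO and at 243, 275, 142 and 235 CPM in S1pr1_KO, a difference of 2.09 (SE 0.75, p 0.0155). Its C3_KO libraries were spread and its S1pr1_KO libraries all lay above them. WT libraries held 140.9, 15.05, 71.68 and 273.8 CPM of Atp2a3 and overlapped both knockouts. Without C3_KO 3 and S1pr1_KO 1 and 4 the difference was 1.67 (edgeR p 0.0822). Derl3, a component of the pathway that removes misfolded proteins from the endoplasmic reticulum, stood at 10.7, 9.36, 6.79 and 9.84 CPM against 49.1, 11.5, 21.1 and 16.1 CPM, and S1pr1_KO 1 was the highest. Foxred2, an oxidoreductase of the same removal pathway, differed by 1.36 (SE 0.41, p 0.00555) and was again highest in S1pr1_KO 1, at 16.9 CPM. Without C3_KO 3 and S1pr1_KO 1 and 4 it differed by 0.47 (p 0.241). Genes of the unfolded protein response, another system of the endoplasmic reticulum, were below 0 for 13 of 16 members, with a median of -0.27 that was 0.01 without C3_KO 3.

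The cytochrome P450 gene Cyp2s1 had the smallest p of the 10. It stood at 1.26, 1.56, 0.716 and 1.56 CPM in C3_KO and at 10.9, 2.03, 2.31 and 4.25 CPM in S1pr1_KO, a difference of 1.94 (SE 0.53, p 0.0027). S1pr1_KO 1 and 4 were the highest, and the difference was 0.60 without these 2 and C3_KO 3. Kcns1, a modifier subunit of voltage-gated potassium channels, stood at 0.751, 1.08, 0.599 and 0.727 CPM against 13.6, 1.15, 1.81 and 1.85 CPM, a difference of 2.54 that was 0.82 without the same 3 libraries (C3_KO 3 and S1pr1_KO 1 and 4). The netrin receptor Unc5a was likewise highest in S1pr1_KO 1, at 11.9 CPM, and its difference of 1.00 was 0.58 without it. Rasgef1b, an exchange factor for small G proteins, was even across S1pr1_KO at 4.80, 4.24, 3.86 and 3.99 CPM, against 2.45, 2.25, 1.51 and 2.57 CPM in C3_KO. Its difference of 0.94 (SE 0.29, p 0.00574) was 0.77 without the 3 libraries. Arfgef3, related to exchange factors for Arf proteins, differed by 0.61 and the tetraspanin Tspan13 by 0.70, or 0.32 without the 3 libraries.

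Among the 10 that were lower in S1pr1_KO, Krt77, an epidermal keratin, had the widest difference. It stood at 0.811, 0.265, 34.7 and 15.1 CPM in C3_KO and at 0.0228, 0.0541, 0.0468 and 0.0297 CPM in S1pr1_KO, a difference of -8.34 (SE 1.96, p 0.00107, adjusted p 1). C3_KO 3 and 4 were the high libraries, and the S1pr1_KO libraries were near 0. Csn1s2b, a casein, stood at 298 CPM in C3_KO 3 and between 1.42 and 1.89 CPM in the other C3_KO libraries, against 0.743 to 1.06 CPM in S1pr1_KO, and its difference of -6.44 was -0.88 without C3_KO 3. Rbp7, a retinol-binding protein of capillary endothelium and fat, stood at 24.4, 43.3, 133 and 23.2 CPM in C3_KO against 17.7, 17.3, 10.1 and 10.1 CPM in S1pr1_KO, a difference of -2.02 (SE 0.63, p 0.00713) that was -1.14 without C3_KO 3.

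The methyltransferase gene Hemk1 stood at 11.9, 13.8, 13.0 and 12.4 CPM in C3_KO and at 8.86, 9.11, 7.30 and 7.84 CPM in S1pr1_KO, a difference of -0.63 (SE 0.20, p 0.00663) that was -0.60 without the 3 libraries. The sialyltransferase gene St6galnac6 stood at 41.4, 47.1, 48.1 and 63.7 CPM against 28.3, 29.3, 30.0 and 27.2 CPM, a difference of -0.80 (SE 0.26, p 0.00902). S1pr1_KO libraries lay within a narrow band below all others of both groups compared. Adamtsl2, a matrix glycoprotein, was spread in C3_KO, at 16.0, 12.6, 12.0 and 32.7 CPM, and its difference of -1.02 was -0.59 without C3_KO 4. S1pr1_KO libraries held 7.07 to 10.9 CPM of Adamtsl2 and WT libraries 4.5 to 6.5 CPM, so both knockouts lay above WT. Fam32a, highest in C3_KO 2, differed by -0.72, and Rab38, a small GTPase of lysosome-related organelles, by -0.84. Ptges3, the Hsp90 co-chaperone p23, stood at 102, 115, 135 and 85.5 CPM against 76.2, 70.2, 75.5 and 85.3 CPM, so that C3_KO 4 and S1pr1_KO 4 nearly met. Fads1, a desaturase of fatty acid chains, differed by -0.51 (SE 0.19, p 0.0173), or -0.33 without the 3 libraries. The direction of these 20 is fixed by how they were chosen.

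**Figure D3:**
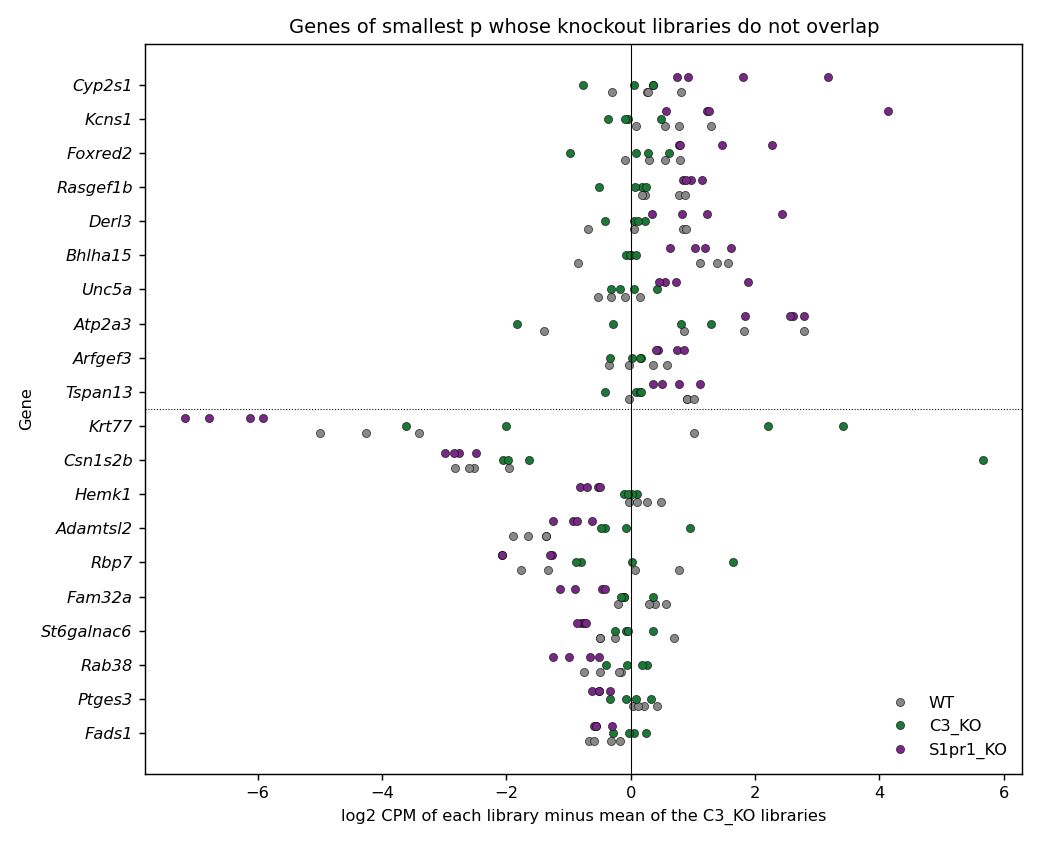
Log2 CPM of each library minus the mean of the 4 C3_KO libraries, for 10 genes higher (top) and 10 lower (bottom) in S1pr1_KO. Green, purple and grey points are the C3_KO, S1pr1_KO and WT libraries. Purple points lie to one side of all green points by the way the genes were chosen.

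Complement genes had a median difference of 0.32 over the 42 members tested, beside -0.03 over all genes, and 34 were above 0. Of all genes tested, 46.2% were above 0, the share to set beside such counts here and below. Only C3 had an unadjusted p under 0.05, which is 1 of 42 beside 3.40% of all genes, and 0 were called. Levels of the whole list were highest in S1pr1_KO 1 and 2 and lowest in S1pr1_KO 3 and C3_KO 3. The median was 0.16 without C3_KO 3, 0.21 without S1pr1_KO 1, 0.49 without S1pr1_KO 3 and 0.05 without C3_KO 3 and S1pr1_KO 1 and 4.

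By role, genes of classical and lectin initiation had a median of 0.27, 9 of 10 above 0. C1qa, a chain of the recognition molecule C1q that macrophages make, stood at 141, 117, 37.2 and 97.9 CPM in C3_KO and at 98.4, 79.4, 144 and 109 CPM in S1pr1_KO, a difference of 0.13 (SE 0.33, p 0.693). C3_KO 3 was the lowest of the 8. The protease gene C1s1 differed by 0.70, with S1pr1_KO 1 and 2 the highest, at 91.3 and 55.7 CPM, and S1pr1_KO 3 the lowest, at 12.9 CPM. Of the C4 genes, which supply a subunit of the enzyme that cleaves C3, C4b differed by 0.44 (SE 0.37) and C4a by 0.91 (SE 0.47, p 0.076). These are near-identical copies, so reads may be split or shared between them.

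In the alternative pathway, the factor B gene Cfb differed by 0.20 (SE 0.54). Cfd, the protease adipsin, which fat cells secrete, stood at 98.0, 153, 9.05 and 26.9 CPM in C3_KO and at 394, 363, 10.5 and 29.8 CPM in S1pr1_KO, a difference of 1.47 (SE 1.34, p 0.293). It was high in the same 2 S1pr1_KO libraries as the white adipocyte genes described further on. Among terminal components, Hc, which encodes C5, differed by 0.68 (SE 0.68), and C8a had no overlap between the knockouts at levels of at most 0.0455 CPM.

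Regulators had a median of 0.22, 7 of 11 above 0, and receptors one of 0.44, 6 of 8 above 0. Clu (clusterin), an inhibitor of the terminal complex, stood at 293, 688, 2004 and 321 CPM in C3_KO and at 289, 380, 499 and 342 CPM in S1pr1_KO. C3_KO 3 was far above the rest, and the difference of -1.13 (SE 0.53, p 0.0533) became 0.05 without the 3 libraries. C3ar1, the receptor for C3a, stood at 8.83, 6.11, 4.59 and 12.1 CPM against 9.48, 9.28, 6.98 and 14.4 CPM, a difference of 0.35 (SE 0.32, p 0.303), and C5ar1 differed by 0.13 (SE 0.33). Cr2, the complement receptor of B cells, stood at 12.8 and 6.68 CPM in S1pr1_KO 1 and 2, at 1.64 CPM in C3_KO 1, and at most at 0.0919 CPM in the other 5 libraries. The integrin chains of the receptors for cleaved C3, Itgam, Itgax and Itgb2, differed by 0.54, 0.67 and 0.55, with p between 0.066 and 0.143.

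Genes of sphingosine-1-phosphate had a median difference of -0.04 over 26 members, 10 above 0 and 16 below, and 1 member, S1pr4, had an unadjusted p under 0.05. S1pr4, the receptor of lymphocytes, stood at 1.22, 0.597, 0.291 and 0.658 CPM in C3_KO and at 4.06, 2.25, 0.790 and 0.453 CPM in S1pr1_KO, a difference of 1.45 (SE 0.62, p 0.0363) that was 0.78 without S1pr1_KO 1. S1pr1_KO 1 and 2, the libraries with B cell transcripts, were the highest. S1pr2 and S1pr3, receptors with wide expression, differed by -0.18 (SE 0.30) and -0.04 (SE 0.35). S1pr5 was at or below 0.445 CPM apart from 1.58 CPM in S1pr1_KO 1.

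Of the kinases that make the lipid, Sphk1 stood at 15.1, 41.5, 15.3 and 10.2 CPM in C3_KO and at 11.4, 13.9, 20.1 and 10.2 CPM in S1pr1_KO, and Sphk2 differed by 0.30 (SE 0.33). C3_KO 2 was the high library for Sphk1. The exporter Spns2 stood at 155, 214, 212 and 176 CPM against 139, 172, 188 and 185 CPM, a difference of -0.15 (SE 0.23, p 0.533). The lyase gene Sgpl1, which ends the pathway, differed by -0.03 (SE 0.20). The ceramidase gene Acer2 had the second smallest p of the list, at -0.46 (SE 0.26, p 0.0918), or -0.11 without C3_KO 3 and S1pr1_KO 1 and 4. Abcg2, a transporter also found in lactating mammary epithelium, stood at 64.0 CPM in C3_KO 3 and between 5.93 and 18.1 CPM in the other 7 libraries.

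Wide differences were found for milk protein genes and for genes of other tissues and cell types, with a few libraries high for each. Across 40 gene lists 737 genes were tested, and 67 members (9.09%) had an unadjusted p under 0.05, beside 3.40% of all genes. No overlap was found for 5 members, beside 1.31% of all genes, and 0 were called by edgeR. The lists were chosen with earlier results of these data known, so the 9.09% is not a test. Salivary, milk and B and plasma cell lists had 10, 11 and 13 such members, which were high together in a few libraries. The level of a list in a library, the mean log2 CPM of its members, overlapped between the knockouts for all 40 lists.

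**Figure D4:**
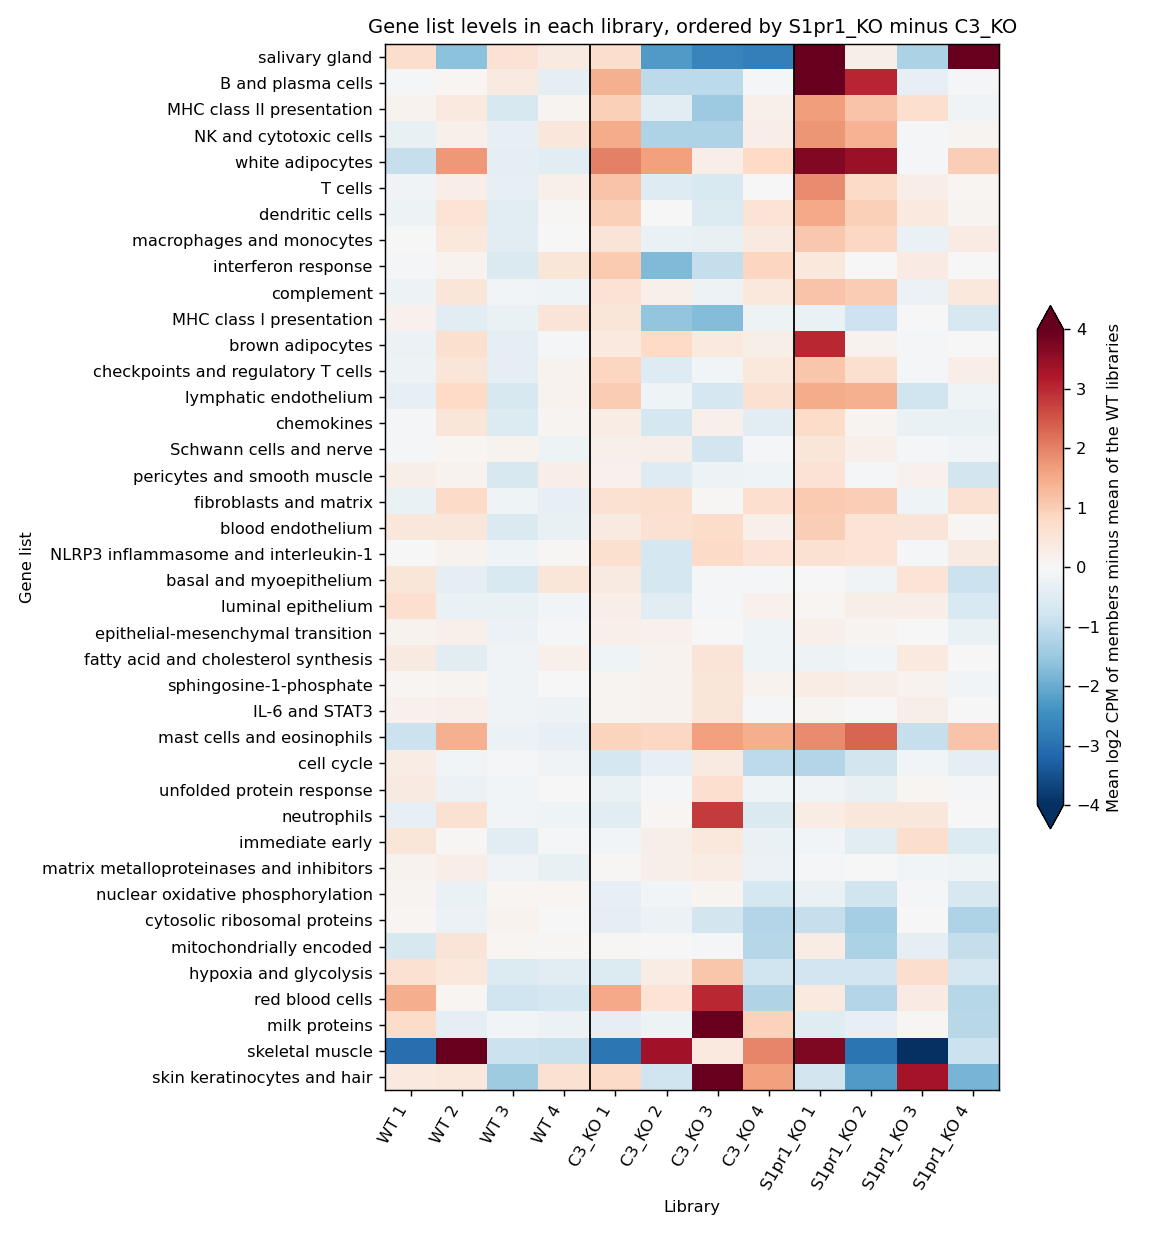
Level of 40 gene lists (rows, ordered by S1pr1_KO minus C3_KO) in 12 libraries (columns) as the mean log2 CPM of members minus the mean of the WT libraries. Red is above WT and blue below, and values beyond 4 take the end colours. Salivary genes are red in S1pr1_KO 1 and 4, B cell and white adipocyte genes in S1pr1_KO 1 and 2, and milk genes in C3_KO 3.

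Salivary gland genes were above 0 for 14 of 15 members tested, with a median of 6.24, and 10 had an unadjusted p under 0.05. Amy1, the salivary amylase gene, stood at 32.8, 5.21, 6.89 and 9.96 CPM in C3_KO and at 28670, 47.0, 10.5 and 1161 CPM in S1pr1_KO, a difference of 9.09 (SE 2.23, p 0.00148, adjusted p 1) that was 4.94 without S1pr1_KO 1. S1pr1_KO 1 was far above all, S1pr1_KO 4 came next, and S1pr1_KO 3 lay among the C3_KO libraries. Bpifa2, a secreted parotid protein, was 10.1% of all counts of S1pr1_KO 1. The gel-forming mucin gene Muc19 and Smgc had another pattern. Smgc stood at 309 CPM in S1pr1_KO 4 and at 0.0091 CPM in S1pr1_KO 1, and Muc19 at 7.01 CPM in S1pr1_KO 4 and at most 0.149 CPM in the other 7 libraries. The 2 libraries thus differed in which salivary genes they held. Aqp5, a water channel of salivary acini that these tumours also expressed, was between 258 and 799 CPM in all 8 and differed by -0.03. The list median was 0.56 without C3_KO 3 and S1pr1_KO 1 and 4. Bhlha15 and Derl3 above are known from acinar cells, and the part that salivary tissue has in their values was not tested. Without the 3 libraries Bhlha15 differed by 0.88 and Derl3 by 0.74.

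Milk protein genes were below 0 for 18 of 18 members, with a median of -2.22, and 11 had an unadjusted p under 0.05. Csn2, beta-casein, stood at 2.74, 4.54, 24190 and 67.2 CPM in C3_KO and at 2.44, 0.211, 12.9 and 0.282 CPM in S1pr1_KO, a difference of -10.58 (p 0.00734). C3_KO 3 stood apart, C3_KO 4 was second, and C3_KO 1 and 2 lay within the S1pr1_KO range. Csn1s1 stood at 29170 CPM in C3_KO 3 and between 6.23 and 84.8 CPM in the other 7, and Lalba, the alpha-lactalbumin of whey, at 1846 CPM in C3_KO 3 and between 30.5 and 365 CPM elsewhere. Csn3, kappa-casein, was high in all 8, from 2156 to 13340 CPM, and Elf5, the transcription factor of alveolar cells, from 205 to 567 CPM. The median was -0.61 without C3_KO 3 and -0.19 without the 3 libraries.

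Lists of IL-6 and STAT3, of the NLRP3 inflammasome with interleukin-1, and of chemokines had medians of -0.01, -0.08 and 0.01. Members that were highest in C3_KO 3 are given here, chosen after their values were seen; as a list, chemokines were highest in S1pr1_KO 1. Il6 stood at 0.203, 0.121, 3.04 and 0.23 CPM in C3_KO and at 0.237, 0.124, 0.178 and 0.141 CPM in S1pr1_KO. Lif, another ligand of this family, stood at 67.1 CPM in C3_KO 3, and the inflammasome product Il1b at 36.4 CPM there against at most 4.29 CPM in the other 7. The neutrophil attractants Cxcl1, Cxcl2 and Cxcl5 stood at 27.6, 13.0 and 26.7 CPM in C3_KO 3 and at most at 3.80, 0.454 and 0.781 CPM elsewhere. Their differences were between -3.69 and -2.11, and the one for Cxcl2 became 0.95 without C3_KO 3. The collagenase Mmp13 stood at 1.60, 10.1, 38.2 and 2.31 CPM in C3_KO against 1.57, 2.24, 1.32 and 2.68 CPM, and Mmp10 at 3.62 CPM in C3_KO 3. Without C3_KO 3 the difference of Mmp13 moved from -2.74 to -1.26 and that of Il6 from -2.40 to -0.12. Neutrophil genes had a median of -0.91, which was 0.61 without C3_KO 3, and red cell genes one of -1.65, which was -0.75 without it.

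Skin and hair genes had a median of -2.13 over 20 members, 13 below 0, and 4 had an unadjusted p under 0.05. Krt10, a keratin of the upper epidermis, stood at 8.32, 7.31, 178 and 38.3 CPM in C3_KO and at 3.95, 2.04, 24.5 and 1.86 CPM in S1pr1_KO, with C3_KO 3 and 4 and S1pr1_KO 3 the high libraries. Tchh (trichohyalin), of the hair follicle, was instead highest in S1pr1_KO 3 at 281 CPM, against at most 31.6 CPM in the other 7. The list median turned to 0.32 without C3_KO 3 and was -5.24 without S1pr1_KO 3. Skeletal muscle genes were highest in C3_KO 2 and S1pr1_KO 1, with Actn3 at 97.3 and 62.9 CPM, and C3_KO 4 and 3 came next. Their median of -0.20 was 1.13 without C3_KO 2, -4.34 without S1pr1_KO 1, -0.61 without C3_KO 1 and -0.52 without C3_KO 3, and it turned to 0.21, 0.17 and 0.17 without S1pr1_KO 2, 3 or 4. It was -6.64 without C3_KO 3 and S1pr1_KO 1 and 4.

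**Figure D5:**
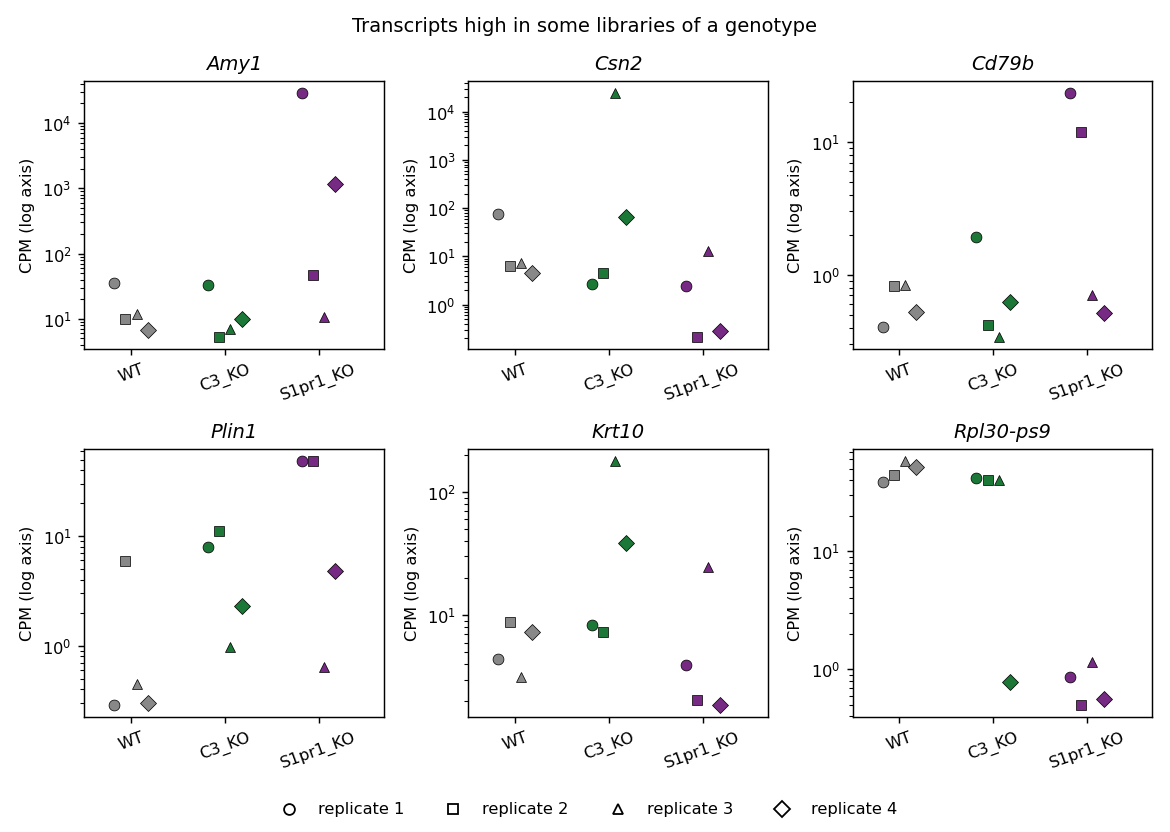
CPM on log axes of a salivary (Amy1), a milk (Csn2), a B cell (Cd79b), an adipocyte (Plin1) and a skin (Krt10) gene and of the pseudogene Rpl30-ps9, a point for each library with its shape giving the replicate. For the first 5 genes 1 to 3 libraries lie far above the rest, Amy1 at 28670 CPM in S1pr1_KO 1 and Csn2 at 24190 CPM in C3_KO 3. For Rpl30-ps9 C3_KO 4 lies with the 4 S1pr1_KO libraries.

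B and plasma cell genes were above 0 for 20 of 20 members, with a median of 2.95, and 13 had an unadjusted p under 0.05. None was called by edgeR, whereas DESeq2 called Blk, Cd22, Cd79b, Fcmr and Fcrla. Cd79b, part of the B cell receptor, stood at 1.94, 0.417, 0.339 and 0.627 CPM in C3_KO and at 23.3, 11.9, 0.711 and 0.52 CPM in S1pr1_KO, a difference of 3.45 (p 0.00564). Cd22, an inhibitory receptor of B cells, stood at 2.64, 0.89, 0.459 and 1.33 CPM against 25.0, 16.2, 0.872 and 2.17 CPM, a difference of 3.05 (SE 0.87, p 0.00371). The high values were in S1pr1_KO 1 and 2, C3_KO 1 came next, and S1pr1_KO 3 and 4 were at or near the levels of the other C3_KO libraries. The median was 2.17 without C3_KO 3 and S1pr1_KO 1 and 4, 2.00 without S1pr1_KO 1, 1.44 with at least 1 CPM in 4 libraries required, and 0.78 on log2(FPKM + 1). The chemokine Cxcl13, which draws B cells into follicles, stood at 0.623, 0.341, 0.139 and 0.648 CPM against 11.6, 3.72, 0.102 and 1.76 CPM, a difference of 3.29 (SE 1.06, p 0.00824) that was 2.11 without S1pr1_KO 1. H2-Ob, a class II chaperone of B cells, stood at 22.6 and 14.2 CPM in S1pr1_KO 1 and 2 and at most at 2.20 CPM elsewhere.

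T cell genes were above 0 for 20 of 21 members, with a median of 0.88 and 2 members at an unadjusted p under 0.05. Cd4 stood at 3.20, 1.17, 0.843 and 1.94 CPM in C3_KO and at 5.65, 4.62, 2.05 and 3.85 CPM in S1pr1_KO, a difference of 1.18 (SE 0.48, p 0.03). Only S1pr1_KO 3 lay within the C3_KO range. Cd3e, a chain of the T cell receptor complex, overlapped widely, at 3.65, 0.772, 0.757 and 1.34 CPM against 4.68, 1.65, 1.76 and 0.895 CPM, a difference of 0.46 (p 0.46). The T cell median was 0.24 without S1pr1_KO 1 and 1.56 without C3_KO 1. NK genes were above 0 for 15 of 15 members with a median of 0.71, which was 1.39 without C3_KO 1, 0.47 without C3_KO 2, 0.41 without C3_KO 3 and 0.38 without S1pr1_KO 1. Class II presentation genes were above 0 for 11 of 11 with a median of 0.46, which was 0.18 without C3_KO 3 and 0.75 without C3_KO 1. Genes of checkpoints and regulatory T cells were above 0 for 9 of 17, with a median of 0.02, and those of regulatory T cells for 2 of 7, with a median of -0.24. The class II chain H2-Ab1 differed by 0.48 (p 0.288), with C3_KO 3 the lowest of the 8 at 48.8 CPM. Macrophage genes had a median of 0.27, and the scavenger receptor Marco stood at 9.00 and 2.66 CPM in S1pr1_KO 1 and 2 and at most at 0.239 CPM in the other 6.

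White adipocyte genes were above 0 for 19 of 19 members, with a median of 1.35 that was 0.86 without S1pr1_KO 1, and 2 had an unadjusted p under 0.05. Plin1 (perilipin), which coats fat droplets, stood at 8.01, 11.2, 0.972 and 2.30 CPM in C3_KO and at 48.0, 48.4, 0.638 and 4.78 CPM in S1pr1_KO, a difference of 2.18 (p 0.128). S1pr1_KO 1 and 2 were high, S1pr1_KO 4 lay within the C3_KO range and S1pr1_KO 3 was the lowest of the 8. Dgat2, an enzyme of triglyceride synthesis, had the smallest p, at 17.5, 13.9, 5.08 and 12.2 CPM against 57.3, 36.5, 13.2 and 14.0 CPM (difference 1.31, SE 0.49, p 0.0189, and 0.84 without S1pr1_KO 1). Pparg, the master factor of fat cells, differed by 1.35 (SE 0.61, p 0.0455), and by 0.80 without S1pr1_KO 1. The thermogenic gene Ucp1 of brown fat stood at 48.3 CPM in S1pr1_KO 1 and at most at 1.16 CPM elsewhere, and its difference of 5.04 became -1.74 without that library. C3 itself was highest in S1pr1_KO 1 and 2, and the part of fat tissue or lymphocytes in that difference was not tested.

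Lists of the tumour epithelium itself had medians near that of all genes. Luminal genes had a median of -0.10 over 21 members, basal and myoepithelial genes one of 0.05 over 14, and genes of epithelial-mesenchymal transition one of -0.05 over 15, each with 0 members at an unadjusted p under 0.05. Cell cycle genes were below 0 for 28 of 30 members, with a median of -0.18, and Cdk1 stood at 36.3, 49.6, 77.8 and 20.4 CPM against 23.4, 26.1, 52.9 and 35.7 CPM. C3_KO 3 was the highest, and the list median was 0.13 without it. Cytosolic ribosomal protein genes were below 0 for 27 of 30, with a median of -0.17, or -0.13 with RLE scaling factors. The 4 libraries of lowest total counts were also the 4 of lowest ribosomal level, 3 of them S1pr1_KO, and the part of depth was not tested. Blood endothelial genes, among which S1pr1 is known to act, had a median of 0.14 over 21 members and lymphatic endothelial genes one of 0.26 over 9, and fibroblast genes one of 0.13 over 25.

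The smallest p-values belonged mostly to pseudogenes and predicted genes. Of the 20 genes of smallest p, 18 (90%) were predicted genes, pseudogenes or antigen receptor segments, beside 42% of all genes tested. These are named here after their values were seen. Rpl30-ps9, a processed copy of the ribosomal protein gene Rpl30, stood at 41.9, 40.3, 40.2 and 0.775 CPM in C3_KO and at 0.86, 0.497, 1.16 and 0.565 CPM in S1pr1_KO, a difference of -5.32 (SE 0.88, p 4.67e-05, adjusted p 0.358). WT libraries held 38.7, 44.1, 58.0 and 51.7 CPM. The 8 knockout libraries thus fell at 2 levels, and C3_KO 4 was at the level of S1pr1_KO. Rpl30-ps10 and Gm12191 showed the same split, Gm12191 at 112, 115, 104 and 3.90 CPM against 4.75, 2.54, 6.37 and 3.10 CPM. Their parent gene Rpl30 stood at 239, 218, 206 and 198 CPM against 250, 174, 243 and 210 CPM, a difference of 0.03 (SE 0.21, p 0.898).

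Other copies parted the libraries at other places. Rpl34-ps2 stood at 0.135, 3.95, 2.37 and 1.69 CPM in C3_KO, so that C3_KO 1 was the low one, and between 0.0865 and 0.141 CPM in S1pr1_KO. Gm29718 stood at 1.32, 1.39, 0.0855 and 1.05 CPM against 0.0135 to 0.0468 CPM, with C3_KO 3 the low one of its group and no overlap between the knockouts. Its difference was -4.97 (SE 0.77, p 2e-05, adjusted p 0.358). Reads shared with parent genes make the levels of such copies uncertain, and the part of the strain background of the mice was not tested.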

How the data were processed

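RNA of 12 primary mammary tumours was sequenced, 4 libraries per genotype. The authors deposited raw counts per gene for 56860 genes, and FPKM values that equal those counts divided by deposited gene length and column total for 682320 of 682320 values (relative tolerance 0.001). Per the submitters' processing notes, StringTie and GRCm39 (mm39) were named. For the aligner, counting program, annotation and strand handling nothing was given in the sources used. Among counts from 1 to 50, 60.2 to 64.4% were even. Whether mates of read pairs were counted separately is not given, so library totals may not be numbers of fragments. Gm10925 reached 99.0 to 100.3% of the mt-Atp6 count, so copies, paralogs and overlapping genes are uncertain.

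Genes were kept by edgeR's filterByExpr (30660 of 56860) and tested with edgeR 4.0.16 in R 4.3.3: TMM factors, a robust quasi-likelihood fit of all 12 libraries with 1 mean per genotype (9 residual degrees of freedom), and Benjamini-Hochberg adjustment over all genes, called under 0.05. Standard errors derive from the fold change and F statistic. CPM use TMM factors, and list levels are mean log2 CPM with a prior count of 2. Alternatives used DESeq2 1.42.0, limma 3.58.1 (voom with quality weights, and log2(FPKM + 1)), other filters and scalings, and leaving out libraries. Scripts were tested on simulated counts.

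The comparison, the gene lists and the libraries left out together were chosen with earlier results of these data known. Named were C3 and S1pr1; up to 15 called genes per direction with no overlap and an average log2 CPM of at least 1, filled to 10 by smallest p where fewer were called; and, per list, up to 4 called members or else 2 of smallest p. Predicted genes, pseudogenes and receptor segments were only counted, except where stated. Beyond this rule, members of the lists were named after their values were seen, to show which libraries were high. A few genes of the lists are not reported singly here, but stay in the fits and the list counts.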

Additional observations from a re-analysis of the deposited data

Results flagged for a closer look

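Among 276 groups of 4 libraries (named genes and list levels in each knockout), 20 (7.2%) held a library whose gap to its nearest neighbour exceeded Dixon's 95% critical share of the group's range. Chance alone gives about 1 in 20 for independent groups from a normal distribution. These groups share libraries, and most genes were named for a small p, so the 7.2% cannot be read against that share. C3_KO 3 was that library 8 times. It was high for Csn1s2b (8.22 log2 CPM, others 0.51 to 0.92), Cxcl2 (3.70), Retnlg (1.28), Hdc (3.14) and Me1 (8.34), and for the sphingosine-1-phosphate list (3.90 mean log2 CPM). It was low for Tspan13 (4.17 log2 CPM, others 4.66 to 4.73) and for the fibroblast list (6.18).

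C3_KO 2 was high for Fam32a (7.21 log2 CPM, others 6.69 to 6.74) and low for the lymphocyte receptor gene Btla (-2.19) and the NLRP3 inflammasome and interleukin-1 list (1.60). C3_KO 1 was high for the salivary list (2.14, others -1.30 to -0.83), and C3_KO 4 was low for mitochondrially encoded genes (10.42, others 11.53 to 11.61).

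S1pr1_KO 3 was high for Fads1 (6.71 log2 CPM), the cornified envelope gene Lor (0.32), the basal keratin gene Krt14 (8.26, others 5.30 to 5.54) and the hypoxia and glycolysis list (6.99, others 5.52 to 5.62), and low for the chaperone gene Hsp90b1 (8.38). S1pr1_KO 1 was high for Ucp1 (5.59, others -3.72 to -2.91) and for the brown adipocyte list (3.21, others 0.10 to 0.32).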

How the results depend on the processing

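The count of called genes was 0 in edgeR with every filter and scaling tried and in both limma fits. In these, the genes at an unadjusted p under 0.05 ran from 450 to 1922, but the number tested differed. It was 450 of 18239 with at least 1 CPM in 4 libraries, 1688 of 45227 with no filter, and 1922 of 30660 with voom. DESeq2 called 114 genes, 57 higher and 57 lower, and the cause was not tested. Leaving out 1 library gave 0 to 3 called, 0 higher and 0 to 3 lower: 2 without C3_KO 1 (Gm10154 and Rpl34-ps2), 1 without C3_KO 3 (Gm29718) and 3 without C3_KO 4. Without S1pr1_KO 3, 2840 of 31286 genes tested had an unadjusted p under 0.05. Without C3_KO 3 and S1pr1_KO 1 and 4 it was 480 of 32280, in a fit that kept only S1pr1_KO 2 and 3 of their group. Scaling by RLE factors moved the median of all genes from -0.032 to -0.003 and the share above 0 from 46.2% to 49.6%.

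Of 2038 values of 98 named genes under alternatives, 2003 kept their direction. Apart from C3 and S1pr1 these genes were named by smallest p, 20 of them also for no overlap. All alternatives used the same libraries or a part of them, so this tally is no independent check. For the 20 with no overlap, 0 of 419 values turned, an outcome largely fixed in advance by how they were chosen. DESeq2 called 7 of the 98 (Cd22, Cyp2s1, Fcmr, H2-Ob, Kcns1, Krt77 and Rasgef1b). Turned log2 fold changes without C3_KO 3 and S1pr1_KO 1 and 4 were 0.19 for Aldh1a3, 0.20 for Cdk1, 0.0525 for Clu, 1.10 for Cxcl2, 0.055 for Egln3, -0.13 for Erap1, 0.61 for Esm1, 0.58 for Hdc, 0.16 for Higd1b, 0.78 for Krt14, 0.26 for Ltf, 0.14 for Me1, -0.10 for Ppargc1a, 0.49 for Retnlg and -2.18 for Ucp1. Without the same 3 libraries the Dpt log2 fold change was -0.00520. Ifit3 was 0.33 on log2(FPKM + 1), and the Tap2 log2 fold change was -0.000318 with voom. Over single libraries left out, log2 fold changes that turned ran from -5.00 to 0.56 for Actn3, -1.73 to 0.14 for Aldh1a3, -3.96 to 0.95 for Cxcl2, -0.037 to 1.14 for Dpt, -0.045 to 0.31 for Erap1, -1.76 to 0.24 for Esm1, -1.49 to 0.22 for Foxc2, -2.16 to 0.41 for Hdc, -0.92 to 0.23 for Ifit3, -2.17 to 0.064 for Krt14, -0.66 to 0.047 for Me1, -1.77 to 0.58 for Ncmap, -2.53 to 0.14 for Retnlg, -0.058 to 0.44 for Tap2 and -1.74 to 6.81 for Ucp1. In all of these the cause was not tested.

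Of the 40 lists, 12 kept the sign of their median in every alternative: complement, B and plasma cells, T cells, NK cells, dendritic cells, macrophages, class II presentation, lymphatic endothelium, white adipocytes, salivary gland, milk proteins and red blood cells. No alternative left out S1pr1_KO 1 and 2 together, so whether the signs rest on that pair was not tested. In S1pr1_KO 3 and 4 the white adipocyte level was 2.24 and 3.29, below the C3_KO mean of 3.49. The lymphatic level was 1.12 and 1.73 there, below a C3_KO mean of 2.09. For T cells, NK cells and class II presentation both libraries lay above the C3_KO mean. For complement, B and plasma cells, dendritic cells and macrophages they lay on either side of it. No paired analysis was possible because the labels give no replicate number shared between genotypes.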
